A study of Mus musculus with 34 samples.

Results

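The genes of 10 amino acid transporters of the plasma membrane were followed in mouse livers and liver tumors: Slc7a11, Slc7a5, Slc3a2, Slc1a5, Slc1a4, Slc38a1, Slc38a2, Slc38a4, Slc7a1 and Slc7a2. They were taken by gene name from the array's own annotation, at every probe that carries the name, as 10 of its 28090 names, which gave 24 of the 41174 probes on the array. Of these, 20 were above background on at least 3 arrays and could be tested, among 31563 such probes in all. The 4 left out were 3 of the 4 probes for Slc7a11 and 1 of the 5 for Slc38a1.

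RNA was measured on 34 Agilent 2-color arrays, each with 1 liver or tumor labelled by Cy3 and pooled RNA of reference mice of both sexes by Cy5. All mice were C57BL/6, and doxycycline silenced the transgenes, so that the tumors and the controls received none. The groups were 3 control livers with no transgene, 7 end-stage tumors with a c-Myc transgene (Myc tumors), 3 with a TGFα transgene and 3 with both (TGFα/c-Myc tumors). Livers, not tumors, were taken after doxycycline had kept the transgene silent during 4 or 12 weeks, with 6 such groups of 3. The labels name neither the promoter that drives the transgenes nor the sex or age of the mice, and they call the samples biological replicates without tying each to an animal. Each value below is log2 of sample over reference, where 1 unit is a change of 2 times, and numbers after a group name are its replicates.

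Between 44.1% and 72.1% of an array's probes were well above background in Cy3. TGFα tumors 2 and 3 and replicate 1 of TGFα off 4 weeks stood apart: intestine genes lay between the percentiles 98.4 and 99.4 of the sample signal on these 3 arrays and between 32.3 and 80.5 on the other 31, and the reference channel differed in the same way. Their ratios were kept out of every comparison, which leaves 1 TGFα tumor. Hepatocyte markers lay at the percentile 90.5 or above on the other 31 arrays. Myc tumor 5 read 1.04 and 0.10 at 2 of the 3 probes of Myc, TGFα/c-Myc tumor 3 read 0.83 and 0.07, and the array labelled TGFα tumor 1 read 3.28 (a saturated spot) and 3.55. The first 2 libraries were therefore also left out as an alternative, and values of the third are given as those of the library labelled so. At Tgfa, the tested probes A_52_P555423 and A_51_P415126 read from 0.16 to 0.28 and from -0.72 to -0.24 in the controls. TGFα/c-Myc tumors 1 to 3 read -0.01, -0.18 and 0.03, then -0.15, -0.48 and -0.02, and TGFα tumor 1 read 0.35 and -0.41. Neither probe shows a clear rise, and whether they can detect the TGFα transgene was not tested. A different scanner read Myc tumors 2 to 7, on scan days of their own.

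Cells import amino acids through carriers with overlapping substrates. Slc7a5 (LAT1) exchanges large neutral amino acids such as leucine, and Slc7a11 (xCT) exchanges cystine for glutamate, each as a pair with the heavy chain Slc3a2 (CD98). Slc1a5 (ASCT2) and Slc1a4 (ASCT1) exchange small neutral amino acids, among them glutamine and serine. Slc38a1, Slc38a2 and Slc38a4 (SNAT1, SNAT2 and SNAT4) take up neutral amino acids together with sodium, and Slc7a1 and Slc7a2 (CAT-1 and CAT-2) carry arginine and lysine. Adult liver is known for high Slc38a4 and Slc7a2, while Slc7a5, Slc1a5 and Slc7a1 are known from growing cells and as genes that c-Myc and the amino acid stress factor ATF4 can induce.

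Promoters of 6 members were listed by RefSeq (GRCm38.p6), and the 250 bases before each start were searched on both strands for 3 motifs, with no overlap between the matches found. The ATF4 element CARE was searched as TGATGNAAN, the NRF2 element ARE as TGACNNNGC and the E-box, which Myc can bind, as CACGTG. These letters occur in 3.44%, 10.2% and 6.02% of all 32851 promoters of that length. The 3 members with a match are shown, 90 bases up to the start site on the minus strand, with each match in capitals.

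Slc7a11, chr3:50443614-50443703: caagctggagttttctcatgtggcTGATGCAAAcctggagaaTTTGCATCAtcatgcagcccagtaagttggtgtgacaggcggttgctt
Slc7a1, chr5:148399905-148399994: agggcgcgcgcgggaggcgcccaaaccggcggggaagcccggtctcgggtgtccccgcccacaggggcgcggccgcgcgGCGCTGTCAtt
Slc38a2, chr15:96699729-96699818: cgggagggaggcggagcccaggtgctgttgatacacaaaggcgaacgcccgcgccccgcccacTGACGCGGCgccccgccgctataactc

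Slc7a11 held 2 CARE matches, which face each other at bases 66 to 58 and 48 to 40 before the start. Slc7a1 held an ARE match at bases 11 to 3 and Slc38a2 held 1 at bases 27 to 19. No E-box lay in any of the searched members, and no match was found for Slc1a4, Slc3a2 or Slc38a4, nor at the second listed start of Slc7a1. Slc7a5, Slc1a5, Slc38a1 and Slc7a2 had no listed promoter and were not searched, so the absence of an E-box says nothing of them. A match describes the letters and does not show that a factor binds.

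Myc tumors had more Slc1a5, Slc7a1, Slc38a1 and Slc7a5 than control livers and less Slc38a2 at 1 of its 4 probes. At an adjusted p under 0.05 (limma, Benjamini-Hochberg over all probes tested), 6 of the 20 member probes, from 4 genes, were higher and 1 was lower. Of all probes, 19.3% were higher and 16.1% were lower, so the share of members called is not far above that of other probes. The median difference of the 20 was 0.11, against 0.00 over all probes.

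Slc1a5, the glutamine exchanger, was higher in every Myc tumor than in the controls. Its probe read 0.03, 0.04 and -0.18 in controls 1 to 3 and from 0.98 to 5.11, with a median of 2.96, in the 7 Myc tumors. Every tumor lay above every control, with tumor 4 highest and tumor 5 lowest. The mean was 2.89 ± 1.45 (SD, n = 7) against -0.04 ± 0.13 (n = 3), a difference of 2.93 (SE 0.58, adjusted p = 0.000444, 7.62-fold). From Feature Extraction's own log ratio with its sign turned, the same difference was 3.19.

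Slc7a1, the arginine carrier whose promoter is shown above, rose too. Its brighter probe, A_51_P475672, was not well above background in any control (-0.01, -0.19 and -0.13). The Myc tumors ran from 0.17 to 3.52 with a median of 2.64. All tumors were above all controls, and tumors 2 (0.61) and 5 (0.17) stood well below the other 5. The fitted difference was 2.30 (SE 0.46, adjusted p = 0.000464), and the bright mean against the controls' detection limit gave at least 4.29-fold. Its dim probe, A_51_P243246, with a mean signal of 81.7 against 235, differed by 0.25 and was not called (adjusted p = 0.0944).

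Slc7a5, the leucine exchanger, read 0.27, 0.26 and 0.56 in the controls. The Myc tumors ran from 0.05 to 3.40, with a median of 1.85. Tumor 5 lay below the controls and tumor 2 (0.48) within them, so the groups overlap, while the other 5 tumors were all at 1.53 or above. The difference was 1.30 (SE 0.43, adjusted p = 0.0216). The call ended without control 1, 2 or 3, with differences from 1.02 to 1.57 over all single arrays left out and an adjusted p up to 0.0709.

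Slc38a1, a glutamine carrier coupled to sodium, was high in only some of the Myc tumors. At probe A_51_P133005 the controls read -0.02, -0.03 and -0.18, and Myc tumors 1 to 7 read 0.20, 0.94, 2.77, 3.18, 0.18, 0.60 and 2.60. Tumors 3, 4 and 7 stood far above the other 4, although all 7 exceeded the controls. The difference was 1.57 (SE 0.47, adjusted p = 0.0111). Probes A_51_P489788 and A_52_P430462 differed by 1.21 (adjusted p = 0.0279) and 1.12 (adjusted p = 0.0312), and at the first, where no control was above background, the tumors were at least 2.04-fold higher. The brightest probe, A_51_P507053, differed by 1.19 and was not called (adjusted p = 0.0684). All 4 probes put tumors 3, 4 and 7 highest.

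The calls at A_51_P489788 and A_52_P430462 rest on single arrays. The first ended without control 1, 2 or 3 or Myc tumor 7 (adjusted p up to 0.105). The second ended without any 1 of the controls or of Myc tumors 3, 4 and 7 (adjusted p up to 0.0970). A fit on the 2 groups alone kept neither, nor A_51_P133005 (adjusted p = 0.129) or Slc7a5 (0.146).

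**Figure D1:**
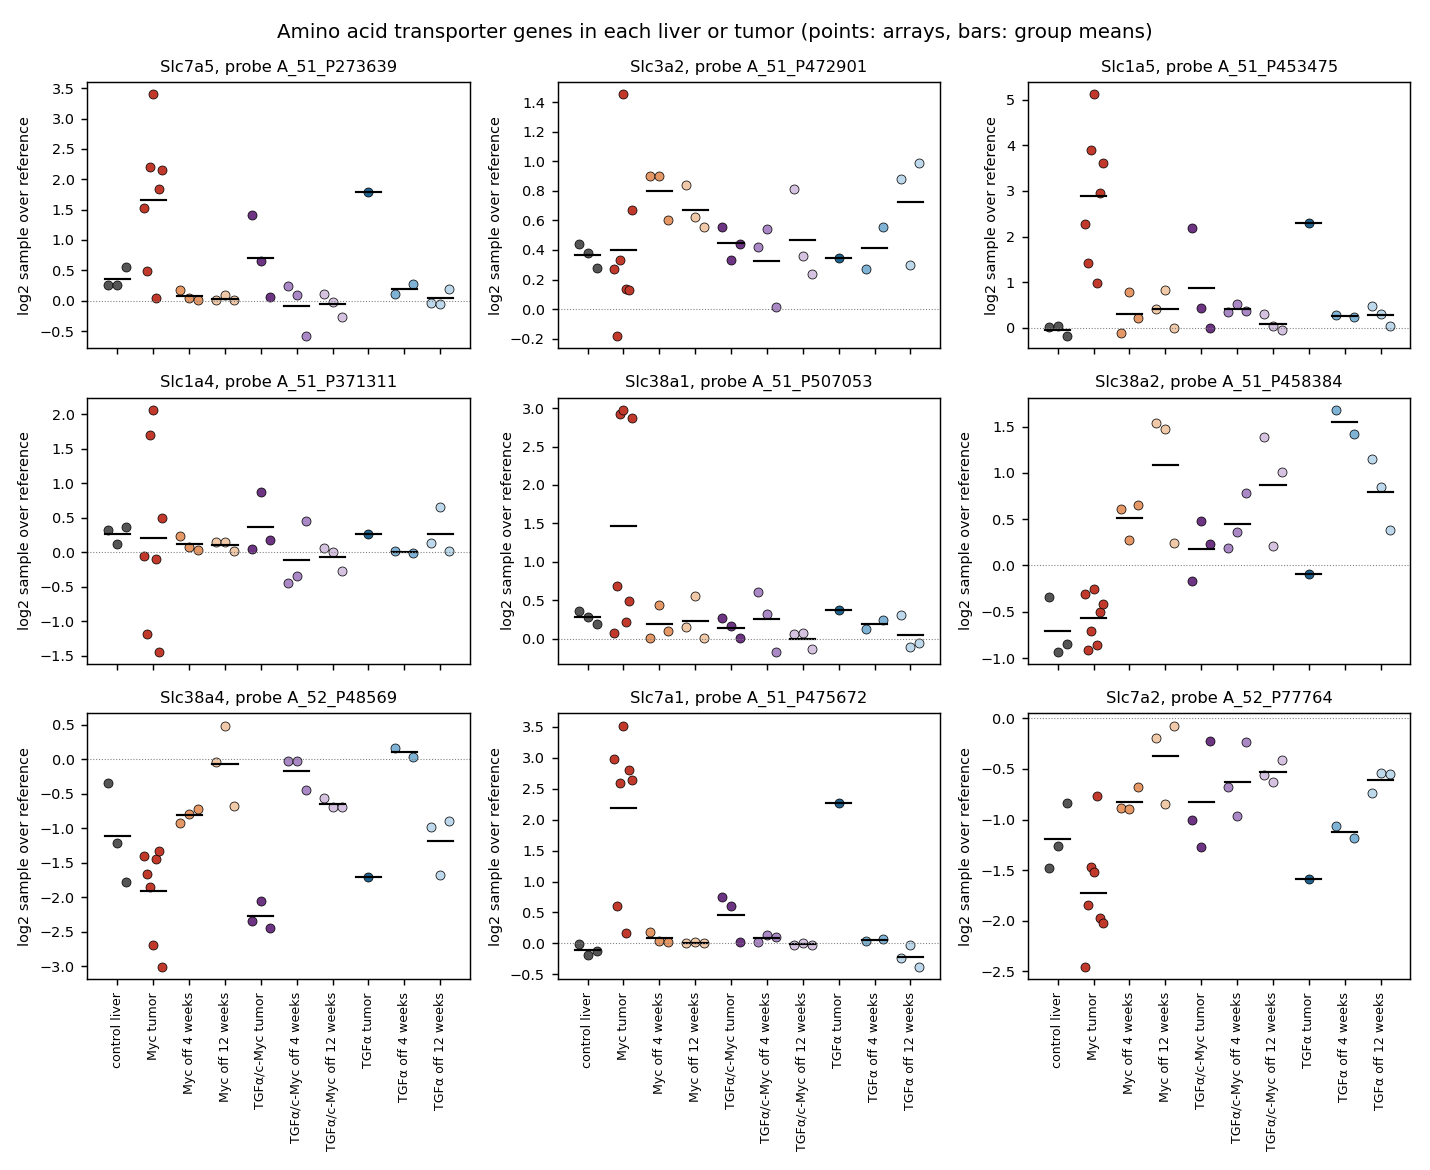
Each panel shows 1 gene at its brightest tested probe: the y axis is log2 of sample over reference, the x axis the group, points are arrays and bars are group means, with 31 arrays in all and a single TGFα tumor. Slc7a5, Slc1a5 and Slc7a1 are spread upward in the Myc tumors and lie near 0 in the off livers, while Slc38a2 and Slc38a4 are higher in the off livers than in the Myc tumors.

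The partner chain of Slc7a5 did not rise with it. Slc3a2 read 0.44, 0.38 and 0.28 in the controls at its bright probe, A_51_P472901, and the Myc tumors ran from -0.18 to 1.45 with a median of 0.27. The groups overlap, and tumor 4 alone was above 1. The difference was 0.03 (SE 0.23, adjusted p = 0.925). Its other probe, A_52_P245648, stayed between -0.40 and 0.31 on all 31 arrays at a mean signal of 108 against 4512, and the pair correlated at an r of only 0.09 over 31 arrays. That dim probe is shown because it holds an early ATG, in capitals, followed by an open reading frame to its end.

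Slc3a2 probe A_52_P245648: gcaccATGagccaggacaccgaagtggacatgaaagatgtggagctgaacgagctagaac

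Slc7a11, the cystine exchanger that also pairs with Slc3a2, could hardly be measured. Its 1 tested probe was well above background on 3 of 31 arrays, control 2 and Myc tumors 4 and 6, and stayed between -0.29 and 0.13. The other 3 probes were above background on 0, 1 and 1 arrays. Its level was thus not detectable on most arrays, and the difference of -0.14 in the Myc tumors (adjusted p = 0.137) has no size to read.

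Slc1a4, the serine exchanger, differed among the Myc tumors rather than from the controls. At A_52_P273098 the controls read 0.56, 0.05 and 0.23, and Myc tumors 1 to 7 read 0.44, -0.76, 2.17, 2.70, 0.00, -0.66 and 0.95. Tumors 3 and 4 were the highest and tumors 2 and 6 lay below every control, a split that its other probe repeats (1.71 and 2.06 against -1.18 and -1.44). The differences from controls were 0.41 and -0.06 (adjusted p = 0.566 and 0.944). The SD of 1.34 among Myc tumors stood against 0.26 among controls.

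Slc38a2, the carrier that amino acid shortage is known to induce and the other member with an ARE match, was read by 4 probes that did not give 1 answer. At A_52_P676686 the controls read 1.16, 0.93 and 1.05 and the Myc tumors from -1.11 to 0.26 with a median of -0.62. All tumors were below all controls, a difference of -1.58 (SE 0.35, adjusted p = 0.00118). At the brightest probe, A_51_P458384, with a mean signal of 5697 against 1192, the controls (-0.34, -0.93 and -0.85) overlapped the tumors (-0.91 to -0.26) and the difference was 0.14 (adjusted p = 0.715). Probes A_52_P459046 and A_51_P199314 differed by -0.65 and -0.32 (adjusted p = 0.155 and 0.209). The 4 probes correlated with each other at an r from 0.55 to 0.84 over the 31 arrays. The call at A_52_P676686 ended under median centring in place of loess (adjusted p = 0.231).

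The carriers typical of hepatocytes were not called in the Myc tumors, though their medians were lower. Slc38a4 at its bright probe, A_52_P48569, read -0.35, -1.21 and -1.78 in the controls and from -3.01 to -1.32, with a median of -1.66, in the tumors. The ranges overlap, and the difference was -0.80 (SE 0.32, adjusted p = 0.0572). Slc7a2 read -1.48, -1.26 and -0.84 in the controls and from -2.46 to -0.77, with a median of -1.84, in the tumors. Tumor 5 was above every control and the other 6 were at or below -1.47. The difference was -0.53 (SE 0.26, adjusted p = 0.120). Without Myc tumor 5 and TGFα/c-Myc tumor 3, both were called lower, Slc38a4 by -0.88 (adjusted p = 0.0408) and Slc7a2 by -0.69 (adjusted p = 0.00860), and Slc38a1 at its brightest probe was called higher (1.39, adjusted p = 0.0280).

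Cell type markers moved in the same comparison. Of 10 hepatocyte markers tested, 6 were lower and 0 higher in the Myc tumors, whose mean over the list ran from -2.14 to -0.64 against 0.04 to 0.18 in the controls. Of 9 neutrophil markers, 7 were higher and 0 lower, and their mean ran from 0.30 to 2.03 in the tumors and from 0.16 to 0.28 in the controls. Of 10 endothelial markers, 6 were lower and 2 higher, and their mean ran from -1.17 to -0.39 in the tumors and from -0.26 to -0.09 in the controls. Off c-Myc for 4 and 12 weeks, 7 and 6 of those 10 were higher than in the tumors and 1 was lower at each time. In bulk RNA, fewer cells of a type and less RNA per cell cannot be told apart. Myc tumor 1, with the lowest neutrophil mean of the 7 (0.30), read 2.27 for Slc1a5, 2.97 for Slc7a1, 1.53 for Slc7a5 and 0.20 for Slc38a1. What these cells contribute was not tested.

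Scan day 1 held 1 Myc tumor and 1 control, the only such pair on a single day. There Myc tumor 1 less control 2 was 2.22 for Slc1a5, 3.17 for Slc7a1, 1.27 for Slc7a5, -1.88 for Slc38a2 at A_52_P676686 and 0.23 for Slc38a1 at A_51_P133005. With scan day as a block, which leaves those same values, the calls of Slc1a5 (adjusted p = 0.139), Slc7a5 (0.198) and Slc38a1 (0.873) ended. Those of Slc7a1 and Slc38a2 did not.

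Once c-Myc had been off, the 4 genes that were higher in the Myc tumors were lower again and 3 others were higher than in the tumors. After 4 weeks, 6 member probes from 3 genes were higher than in the Myc tumors and 5 from 4 genes were lower, where 13% and 17.4% of all probes were. After 12 weeks the counts were 6 and 6, against 13.8% and 15.6%. Slc38a2, Slc38a4 and Slc7a2 made up the higher calls at both times, and Slc1a5, Slc7a1, Slc7a5 and Slc38a1 the lower. Since these comparisons use the same tumors as the one before, they are not independent of it.

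Slc1a5 read -0.11, 0.78 and 0.22 in the livers off for 4 weeks and 0.42, 0.82 and 0.01 in those off for 12. All 6 lay below the lowest Myc tumor (0.98). The differences from the tumors were -2.59 (SE 0.58, adjusted p = 0.00157) and -2.48 (SE 0.58, adjusted p = 0.00232).

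Slc7a1 at A_51_P475672 read 0.18, 0.04 and 0.03 at 4 weeks and 0.01, 0.03 and 0.00 at 12. These livers lay close together, and only Myc tumor 5, at 0.17, reached their level. The differences were -2.11 (adjusted p = 0.00123) and -2.17 (adjusted p = 0.000924). Slc7a5 read 0.17, 0.04 and 0.01, then 0.01, 0.10 and 0.00, with tumor 5 (0.05) again the one that overlapped. The differences of Slc7a5 were -1.59 (SE 0.43, adjusted p = 0.00701) and -1.63 (adjusted p = 0.00608).

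Slc38a1 at A_51_P133005 lay between -0.30 and 0.23 in the 6 livers off c-Myc. It differed from the tumors by -1.55 at 4 weeks (adjusted p = 0.0140) and by -1.47 at 12 (adjusted p = 0.0200). The first call ended without replicate 1 off 4 weeks (adjusted p = 0.0719), and the second without replicate 1 or 3 off 12 weeks (adjusted p up to 0.0789). In the fit with a term for scan day the difference at 12 weeks was 0.012 (adjusted p = 0.997), so neither its direction nor its call held there. A second Slc38a1 probe, A_52_P430462, was also lower, with -1.08 and -1.10 (adjusted p = 0.0426 and 0.0403), and lost each call when any 1 of 6 arrays was left out (adjusted p up to 0.114 and 0.113). The dim probe of Slc7a1 differed from the tumors by -0.35 at 12 weeks (adjusted p = 0.0223), a call that ended without replicate 1 or 2 off 12 weeks (adjusted p up to 0.0922). Within scan day 1, the 3 livers off 4 weeks less Myc tumor 1 gave -0.25 for Slc38a1, against -1.97 for Slc1a5, -2.89 for Slc7a1 and -1.46 for Slc7a5.

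Slc38a2 rose at 3 of its probes. At A_51_P458384 the livers read 0.61, 0.28 and 0.65 at 4 weeks and 1.54, 1.48 and 0.24 at 12. Every one lay above every Myc tumor, the highest of which was at -0.26. The differences were 1.08 (SE 0.26, adjusted p = 0.00293) and 1.65 (SE 0.26, adjusted p = 5.75e-05). At A_52_P459046 they were 1.67 (adjusted p = 0.000869) and 1.45 (adjusted p = 0.00283), and at A_52_P676686 they were 1.56 (adjusted p = 0.00158) and 1.31 (adjusted p = 0.00612). The last call ended without replicate 2 off 12 weeks (adjusted p = 0.0673). With median centring in place of loess, no probe of Slc38a2, Slc38a4 or Slc7a2 was called at 4 weeks, and at 12 weeks A_52_P459046, the bright probe of Slc38a4 and Slc7a2 kept their calls.

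Slc38a4 at A_52_P48569 read -0.93, -0.79 and -0.71 at 4 weeks and -0.04, 0.49 and -0.67 at 12, all above the highest Myc tumor (-1.32). It was higher than in the tumors by 1.10 (SE 0.32, adjusted p = 0.0120) and 1.84 (SE 0.32, adjusted p = 0.000184). Its second probe, A_52_P12403, is printed because its rises off c-Myc were smaller (0.89 at 4 weeks and 0.99 at 12), with a mean signal of 792 against 11090 and an r of 0.70 to the first.

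Slc38a4 probe A_52_P12403: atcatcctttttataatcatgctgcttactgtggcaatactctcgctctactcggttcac

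That probe rose by 0.89 (adjusted p = 0.0262) and 0.99 (adjusted p = 0.0145). Neither call was stable: the first ended without replicate 1, 2 or 3 off 4 weeks (adjusted p up to 0.0930) and the second without replicate 1 or 2 off 12 weeks (adjusted p up to 0.0777). Slc7a2 read -0.89, -0.90 and -0.68, then -0.19, -0.84 and -0.07, and was higher than in the tumors by 0.90 (SE 0.26, adjusted p = 0.0111) and 1.35 (SE 0.26, adjusted p = 0.000427). The first of these ended without replicate 3 off 4 weeks (adjusted p = 0.0516). Hepatocyte markers rose in the same comparisons, 9 of 10 at 4 weeks and 6 of 10 at 12, and their part was not tested.

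Within scan day 1, the livers off 4 weeks less Myc tumor 1 gave 0.82, 1.31 and 1.98 for the 3 probes of Slc38a2 in the order above and 0.59 and 0.87 for the bright and the second probe of Slc38a4. Slc3a2 read 0.90, 0.90 and 0.60 at 4 weeks and 0.84, 0.62 and 0.56 at 12 and was not called (0.40 and 0.27, adjusted p = 0.197 and 0.406). Slc1a4 was not called at either time. With scan day as a block, Slc7a1, Slc7a2 and Slc38a2 at A_52_P676686 kept their calls at 4 weeks, and no member was called at 12 weeks.

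**Figure D2:**
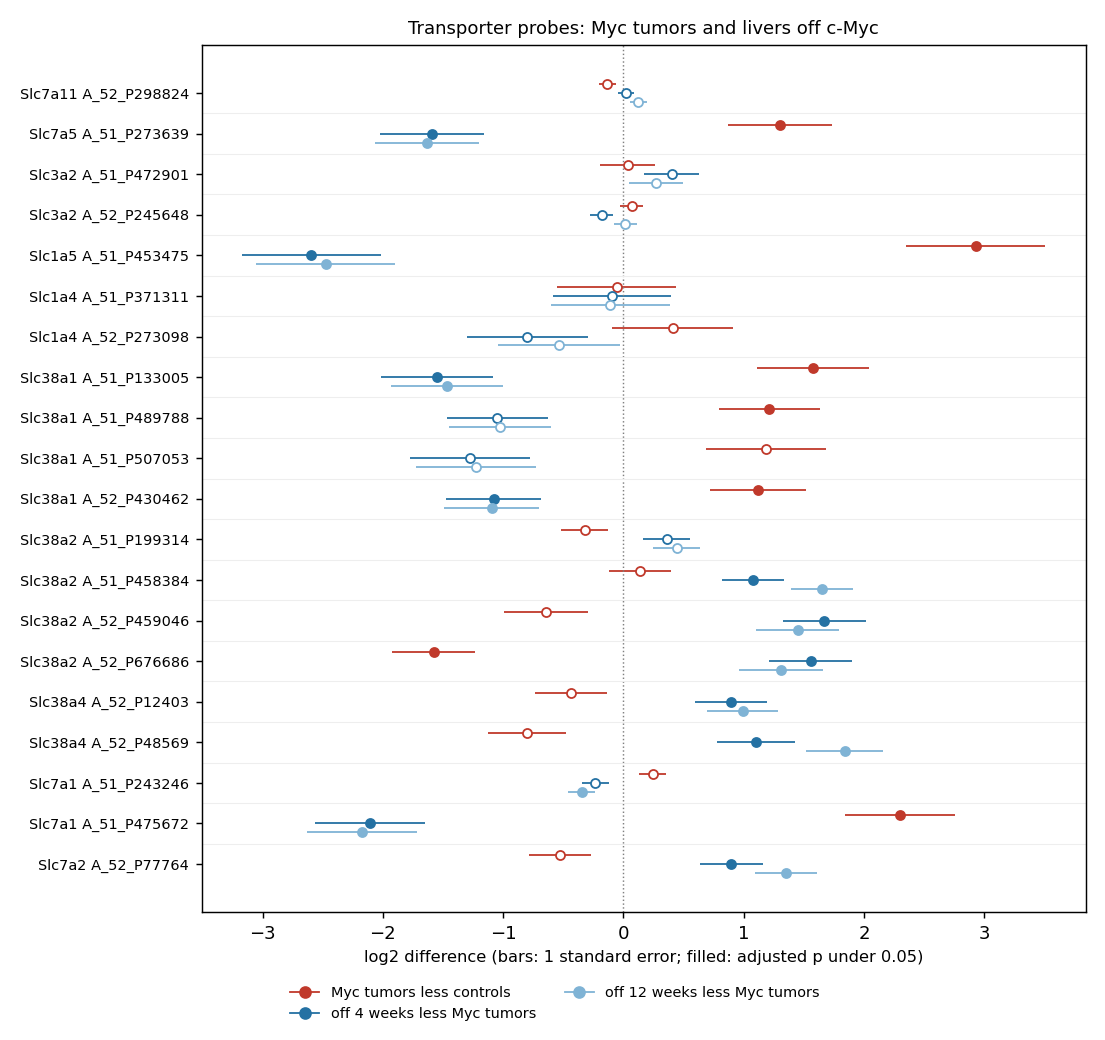
The x axis is the log2 difference and each row a probe: red is Myc tumors less controls, dark blue and light blue are livers off c-Myc for 4 and 12 weeks less Myc tumors. Bars are 1 standard error and filled points have an adjusted p under 0.05. The red points of Slc1a5, Slc7a1, Slc7a5 and Slc38a1 lie to the right with the blue ones to the left, and the blue points of Slc38a2, Slc38a4 and Slc7a2 lie to the right.

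In the tumors with both transgenes no member was called against the controls. limma called 0 of 20 probes in either direction, with 2 higher and 1 lower at an unadjusted p under 0.05, where 0.802% and 0.792% of all probes were called. Slc1a5 read 2.18, 0.43 and -0.01 in TGFα/c-Myc tumors 1 to 3, so that tumor 1 was as high as Myc tumor 1, tumor 2 lay between, and tumor 3 was within the controls. The difference was 0.90 (SE 0.68, adjusted p = 0.675). Slc7a5 read 1.40, 0.65 and 0.06 and Slc7a1 0.75, 0.60 and 0.03, with the same order of the 3 tumors.

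The 3 unadjusted calls were Slc38a2 at A_51_P458384 (0.89, adjusted p = 0.167), Slc38a2 at A_52_P459046 (1.06, adjusted p = 0.234) and Slc38a4 at A_52_P48569 (-1.17, SE 0.38, adjusted p = 0.138). For Slc38a4 the tumors, at -2.33, -2.05 and -2.45, all lay below the lowest control (-1.78). With scan day as a block its difference was -1.84, which rests on control 1 alone, the highest of the controls at this probe (-0.35). Within scan day 7, TGFα/c-Myc tumors 1 and 2 less control 1 gave that same -1.84, against 1.28 for Slc1a5, 0.76 for Slc7a5 and 0.68 for Slc7a1. The second probe of Slc38a4, A_52_P12403, gave -0.56 on that day. Over all scan days its tumors (-2.18 to -0.77) and controls (-1.59 to -1.17) overlapped.

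Off both transgenes, the bright probe of Slc38a4 was the one member probe called against the tumors. It read -0.03, -0.03 and -0.44 after 4 weeks and -0.56, -0.69 and -0.70 after 12, all above the 3 tumors. The differences were 2.11 (SE 0.38, adjusted p = 0.00181, 4.32-fold) and 1.63 (SE 0.38, adjusted p = 0.0168, 3.09-fold). Higher calls were made at 3.63% of all probes at 4 weeks and 1.82% at 12, and lower calls at 3.15% and 1.74%. Median centring in place of loess ended both calls. The call at 12 weeks also ended without TGFα/c-Myc tumor 1 or any 1 of the 3 livers (adjusted p up to 0.0876). It ended too with the slide as a random block, and held with scan day as a block. The off livers share no scan day or slide with these tumors. At 4 weeks a difference of scan day cannot be told apart from being off both transgenes. The second probe read -1.77, -2.18 and -0.77 in the tumors and differed by 1.03 (adjusted p = 0.0811) and 0.09 (adjusted p = 1.00). Slc1a5, Slc7a5 and Slc7a1 differed from the tumors by -0.45, -0.79 and -0.37 at 4 weeks, none called (adjusted p = 0.852, 0.454 and 0.838). Hepatocyte markers were called at 2 of 10 genes there, both higher.

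Set directly against Myc tumors, TGFα/c-Myc tumors had less Slc1a5, Slc7a1 and Slc38a1 and more Slc38a2 and Slc7a2. Higher calls fell on 4 member probes from 2 genes and lower calls on 4 from 3 genes, against 10.8% and 13.1% of all probes. Slc1a5 differed by -2.03 (SE 0.58, adjusted p = 0.0134), Slc7a1 by -1.73 (SE 0.46, adjusted p = 0.00839) and Slc38a1 at A_51_P133005 by -1.54 (SE 0.47, adjusted p = 0.0194). All 3 TGFα/c-Myc tumors lay below all Myc tumors for Slc38a1 alone among these. Its probe A_52_P430462, not above background in any of the 3, was at least 2.15-fold lower (adjusted p = 0.0401), a call that 6 arrays each ended when left out (adjusted p up to 0.139). Slc7a5 differed by -0.96 and was not called (adjusted p = 0.110).

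Slc38a2 at A_52_P459046 read -0.27, 1.77 and -0.03, all above the Myc tumors (highest -0.72), a difference of 1.71 (SE 0.35, adjusted p = 0.00129). Probes A_51_P458384 and A_52_P676686 differed by 0.75 (adjusted p = 0.0393; -0.21 under median centring) and 0.97 (adjusted p = 0.0435), and Slc7a2 by 0.89 (adjusted p = 0.0155). Of these 8 calls, those of Slc7a1 and of Slc38a2 at A_52_P459046 held with every single array left out. That of Slc7a1 ended without background subtraction (-1.10, adjusted p = 0.101), with Agilent's processed signals (-0.94, adjusted p = 0.344), with the series matrix (-1.33, adjusted p = 0.338) and in the fit on the groups compared alone (adjusted p = 0.146). That of Slc38a2 ended under median centring (1.14, adjusted p = 0.116). Slc1a5 and Slc38a1 at A_51_P133005 lost theirs without TGFα/c-Myc tumor 2 or 3 (adjusted p up to 0.0955 and 0.0888) and Slc7a2 without tumor 3 (0.154). The calls of A_51_P458384 and A_52_P676686 ended without 6 different arrays each (adjusted p up to 0.223 and 0.247), among them TGFα/c-Myc tumors 2 and 3. Without Myc tumor 5 and TGFα/c-Myc tumor 3 together, both of these were also not called (adjusted p = 0.124 and 0.104).

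Myc tumors 2 to 7 and the TGFα/c-Myc tumors share no scan day or scanner, and with scan day as a block no member was called. Hepatocyte markers were higher in the TGFα/c-Myc tumors at 7 of 10 genes and neutrophil markers lower at 7 of 9, while endothelial markers were higher at 7 of 10 and lower at 1. The neutrophil mean ran from 0.03 to 0.23 in the TGFα/c-Myc tumors. The part of these cells in the differences was not tested.

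**Figure D3:**
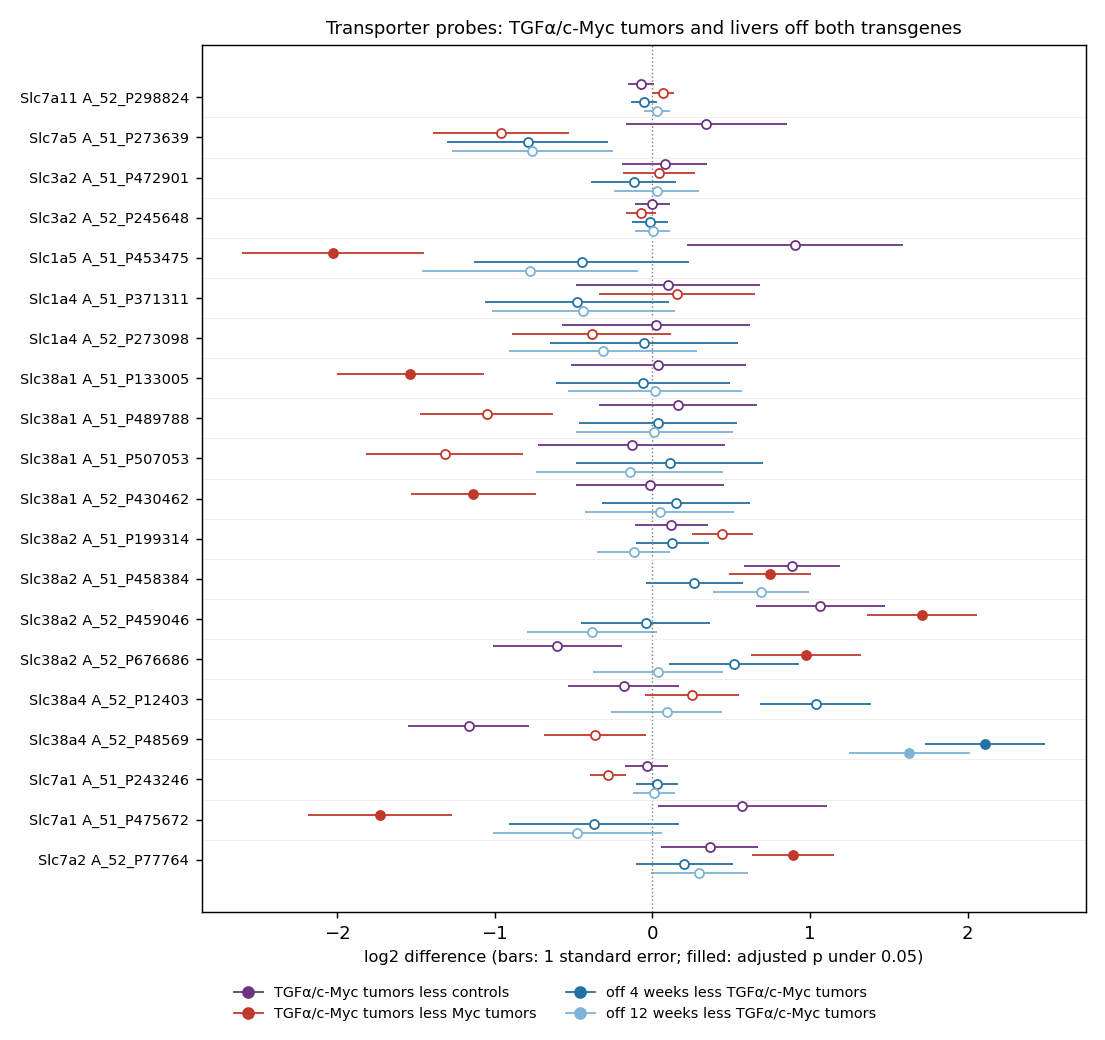
The x axis is the log2 difference and each row a probe: purple is TGFα/c-Myc tumors less controls, red is TGFα/c-Myc less Myc tumors, and the blues are livers off both transgenes for 4 and 12 weeks less TGFα/c-Myc tumors. Bars are 1 standard error and filled points have an adjusted p under 0.05. The filled blue points are those of Slc38a4 A_52_P48569, and no purple point is filled.

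Of the TGFα tumors, the 1 library in the comparison set read 1.79 for Slc7a5, 2.29 for Slc1a5, 2.27 for Slc7a1, 0.44 for Slc38a1 at A_51_P133005 and -1.71 for Slc38a4. These values lie within the range of the Myc tumors, as do its readings at those Myc probes, though not at the third (1.37 against -0.96 to 0.43), and there is no replicate. On the 3 arrays with the other reference profile Slc1a5 read 0.22, 0.22 and 0.19, and Slc7a2 was not above background on any of them.

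After TGFα had been off for 12 weeks, Slc38a4 at A_52_P12403 read -2.08, -2.23 and -1.95, below replicates 2 and 3 at 4 weeks (-0.16 and -0.51). The difference was -1.76 (SE 0.40, adjusted p = 0.0304), and the call ended without any 1 of the 5 livers (adjusted p up to 0.515). It also ended under median centring, with the slide as a random block and with a sex score. The livers at 12 weeks shared a slide and a scan day, and those at 4 weeks shared another of each. Time off thus cannot be told apart from slide or scan day here. A_52_P12403 was the 1 member probe called between 12 and 4 weeks in any of the 3 genotypes, where 0.00317% (c-Myc), 1.14% (TGFα) and 1.15% (both) of all probes were called in either direction. The bright probe pointed the same way, with -0.97, -1.68 and -0.89 at 12 weeks against 0.17 and 0.04.

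Against the control livers, the off livers differed at 1 member probe. Slc38a2 at A_51_P458384 was higher off c-Myc for 12 weeks (1.79, SE 0.31, adjusted p = 0.0199), off TGFα for 4 weeks (1.68 and 1.42 in 2 livers, 2.26 higher, adjusted p = 0.00317) and off both for 4 weeks (0.19, 0.37 and 0.78, 1.15 higher, adjusted p = 0.0285). All livers of these 3 groups lay above all 3 controls, which the comparisons share. The livers off TGFα and off both for 4 weeks share no scan day or slide with the controls, so these cannot be told apart from being off. Replicates 1 and 2 off both lay on the same slide as the 2 livers off TGFα. With scan day as a block the call off c-Myc ended. Off c-Myc, off TGFα and off both, 0.00317%, 0.608% and 5.72% of all probes were called in either direction at 4 weeks and 0.139%, 0.0222% and 0.0158% at 12. The call off c-Myc ended without control 2 or 3 or replicate 1 or 2 off 12 weeks (adjusted p up to 0.226), that off TGFα without replicate 2 (0.229), and that off both without control 2 or 3 or replicate 2 or 3 (0.128). The other 3 probes of Slc38a2 were not called against the controls in any off group. A_52_P676686 differed there by -0.27 off c-Myc for 12 weeks, 0.49 off TGFα for 4 weeks and -0.086 off both for 4 weeks. In the same order, the group means were 0.23, 0.80 and 0.45 at A_52_P459046, against -0.57 in the controls. At A_51_P199314 they were 0.28, 0.80 and 0.41, against 0.16. The transporters that had been high in the Myc tumors were not called in any of these 6 comparisons.

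The change from tumor to off liver was also compared between the 2 genotypes with Myc. Slc38a2 at A_52_P459046 rose by 1.67 off c-Myc for 4 weeks and differed by -0.04 off both, a difference of responses of -1.71 (SE 0.54, adjusted p = 0.0358). TGFα/c-Myc tumor 2 read 1.77 where the other two read -0.27 and -0.03, and without it the difference was -1.08 and was not called. The call also ended without replicate 1 or 2 off c-Myc or any 1 of the 3 livers off both (adjusted p up to 0.149). It was the 1 call of 20 probes at 4 weeks, where 13.6% of all probes were called, and at 12 weeks limma made 0 calls of 20 (5 at an unadjusted p under 0.05), against 2.65%. The livers off both for 4 weeks share no scan day or slide with their tumors, which cannot be told apart from this difference. Without Myc tumor 5 and TGFα/c-Myc tumor 3, Slc7a1 was called too, its fall being smaller off both by 1.85 (adjusted p = 0.0253) at 4 weeks and by 1.82 (adjusted p = 0.0486) at 12.

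Members differed in how they moved together over the 31 arrays, described by Pearson's r at the brightest probe, where points share the reference pool, slides and groups. Slc7a5, Slc1a5 and Slc7a1 formed the closest trio, with an r of 0.94 between the first pair and 0.93 for each with Slc7a1. Slc38a1 joined them at 0.84 with Slc1a5, whereas Slc3a2 stood at 0.22 with Slc7a5. Slc38a2 and Slc38a4 correlated at 0.62. The 2 arginine carriers ran against each other, Slc7a1 and Slc7a2 at -0.75.

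**Figure D4:**
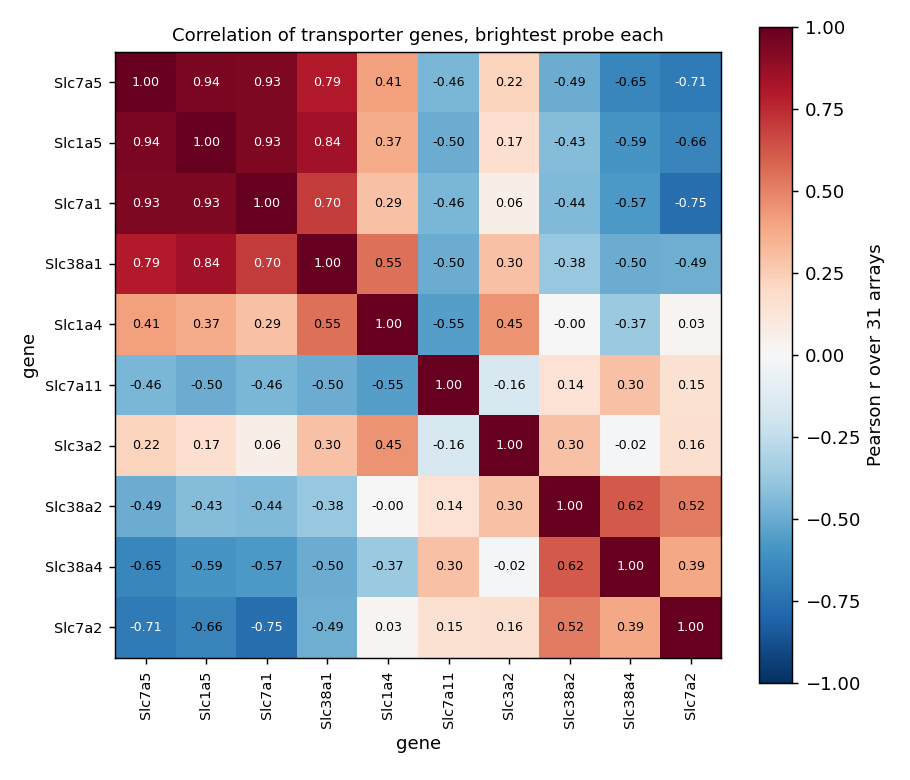
Each cell is Pearson's r between 2 genes, named on both axes, over 31 arrays at the brightest tested probe of each gene. Slc7a5, Slc1a5, Slc7a1 and Slc38a1 form the red block at the upper left, and Slc7a2 and Slc38a4 are blue against them.

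The genes whose pattern was most like each member's were named by the highest r over the same arrays. They were Kctd17 (0.97) for Slc7a5, the glycolytic enzyme Pkm (0.97) for Slc1a5, B4galt6 (0.97) for Slc7a1 and Enah (0.97), an actin regulator, for Slc38a1. The best match was Atg3 (0.93) for Slc38a4, Nrp1 (0.87) for Slc7a2, Trak1 (0.86) for Slc38a2, Sytl4 (0.87) for Slc1a4 and Cln3 (0.77) for Slc3a2. No value is given for Slc7a11, which was below background on most arrays.

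Other genes of amino acid supply were counted in lists written from general knowledge. The counts are of genes called at 1 or more of their probes, so a share of all probes is not a like measure. Every count of Myc tumors against controls below stands beside 19.3% of all probes higher and 16.1% lower. Each is followed by its count in probes. Of 24 other plasma membrane amino acid transporters tested, 10 were higher and 7 lower in the Myc tumors (11 and 8 of 37 probes). The list median was -0.02 against 0.00 over all probes. Slc36a2 (3.14, adjusted p = 4.05e-05), Slc7a3 (1.99, adjusted p = 0.000141), a further arginine carrier, and Slc7a7 (1.29, adjusted p = 6.31e-05), the arginine exporter that pairs with Slc3a2, rose. Slc38a3 (SNAT3), the glutamine carrier of hepatocytes, fell by 2.53 (adjusted p = 3.65e-06) and was 3.29 higher off c-Myc for 12 weeks than in the tumors (adjusted p = 2.25e-07). In the TGFα/c-Myc tumors 1 of the 24 was higher than in controls, Slc7a7 (1.29, adjusted p = 0.00728), and it was lower again by 1.66 off both for 4 weeks (adjusted p = 0.000346).

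Of 31 ATF4 pathway genes, 15 were higher and 5 lower in the Myc tumors (20 and 5 of 48 probes), with a list median of 0.28. The asparagine synthetase gene Asns rose by 6.58 (adjusted p = 3.71e-08) and the serine pathway gene Psat1 by 5.38 (adjusted p = 2.48e-07). Off c-Myc for 12 weeks 13 of the 31 were lower than in the tumors and 3 higher (16 and 4 of 48 probes), beside 15.6% and 13.8% of all probes. In the TGFα/c-Myc tumors 7 were higher than in controls and 0 lower (9 and 0 of 48 probes), beside 0.802% and 0.792% of all probes. Asns rose by 4.49 (adjusted p = 0.000499) and Phgdh, which starts the serine pathway, by 4.50 (adjusted p = 0.000148), although no member transporter was called there. Off both for 4 weeks 12 were lower than in those tumors and 3 higher (15 and 3 of 48 probes), beside 3.15% and 3.63%.

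Of 16 enzymes of glutamine and arginine use, 3 were higher and 4 lower in the Myc tumors (4 and 4 of 22 probes). Ornithine decarboxylase Odc1 was at 2.35 (adjusted p = 7.91e-05). Off c-Myc for 12 weeks 9 of the 16 were higher than in the tumors and 2 lower (10 and 3 of 22 probes), beside 13.8% and 15.6%. Among 20 genes of glutathione synthesis and NRF2 targets, 4 were higher and 6 lower in the Myc tumors (5 and 8 of 30 probes). The ligase subunit Gclc fell by 2.67 (adjusted p = 5.96e-07) and Ggt1, which breaks glutathione down outside cells, rose by 3.26 (adjusted p = 2.25e-05). Of 32 genes of amino acid sensing and mTORC1, 10 were higher and 10 lower (15 and 11 of 53 probes). Of 16 lysosomal and mitochondrial carriers 3 were higher and 5 lower, the aspartate-glutamate carrier Slc25a12 by 1.72 (adjusted p = 1.82e-05). In probes the carriers' counts were 3 and 5 of 23.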

How the data were processed

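Scanner files of 34 arrays were used. Per the file headers, the authors' mean and background values are scanner intensity, the processed intensity was background-subtracted and dye-normalized by Agilent Feature Extraction, and the deposited log10 ratio is Cy5 over Cy3. The deposited series matrix holds log2 values, read here as Cy5 over Cy3 because each column correlated with the scanner's log ratio at an r from 0.329 to 0.927 across genes. Their column medians ran from -0.374 to 0.445 and their centring is not stated. The submitters' processing notes name limma without a version.

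Mean signals were corrected by normexp (offset 50), log2 of Cy3 over Cy5 was normalized by loess within each array, and spots of a probe were averaged. A probe had to be well above background in the Cy3 channel of 3 or more of the 31 arrays. R 4.3.3 with limma 3.58.1 fitted 1 coefficient per group with eBayes, and p-values were adjusted by Benjamini-Hochberg over all kept probes at 0.05. The number of arrays limits the precision, and p-values measure the spread between these samples. A fold against a group not above background is a bound against the detection limit.

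Every member gene was named, though not each of its probes. 1 gene of another list is not reported here. From other lists up to 4 genes with the smallest p were eligible. Members and lists were chosen with earlier results of these data known. Replicate numbers were not taken to pair the samples: same-numbered samples deviated together at a median r of 0.02 over 100 pairs. An r over 0.1 was found in 34 of these and in 53 of 292 pairs with unlike numbers, so the check cannot exclude that some samples are paired. Alternatives covered background, scaling, filters, blocks, covariates, probe choice and single arrays left out. In a further setting Myc tumors 3 and 4 were averaged into 1 sample, which ended each call of Slc38a1 at A_52_P430462.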

Additional observations from a re-analysis of the deposited data

Results flagged for a closer look

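The change of Slc38a2 at probe A_52_P459046 from tumor to liver 4 weeks off differed between the genotypes by a test of the difference itself: it was -1.71 for both transgenes less c-Myc alone (log2, limma adjusted p = 0.0358). It was the 1 call of 20 member probes in this test, where 13.6% of all probes were called. The value ran from -2.09 to -1.08 with single arrays left out, and the call held in 10 of those 16 fits. Under 4 of 13 other settings the call ended. The other 3 probes of Slc38a2 were not called in this test. In groups of 4 to 10 samples, which here are the Myc tumors alone, no member probe had a sample far from the others by Dixon's test.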

How the results depend on the processing

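Counts here are called member probes of 20, in this order: Myc tumors against controls 7, Myc off 4 weeks 11 and off 12 weeks 12 against Myc tumors, TGFα/c-Myc tumors against controls 0, off both for 4 weeks 1 and for 12 weeks 1 against those tumors, TGFα/c-Myc against Myc tumors 8, off livers against controls 3, 12 against 4 weeks 1, and difference of responses 1. Counts that moved by over 1.5 times follow. Median centring in place of loess gave 4, 4, 7 and, for TGFα/c-Myc against Myc tumors, 2, and 0 for off both at 4 and 12 weeks and for the last 3. A fit on the groups compared alone gave 3, 4 and 6 for the first 3, 2 for TGFα/c-Myc against Myc tumors, 1 for off livers against controls and 0 for responses. Scan day as a block gave 3, 4 and 0 for the first 3, 1 for TGFα/c-Myc tumors against controls and 0 for TGFα/c-Myc against Myc tumors. With 1 probe per gene, the counts were 3, 6 and 6 for the first 3, 4 for TGFα/c-Myc against Myc tumors and 0 for each of the last 2. Agilent's processed signals gave 1 for TGFα/c-Myc tumors against controls, 4 and 3 for off both, 1 for off livers against controls and 4 for responses. The series matrix gave 3 and 2 for off both, 6 for off livers against controls, 2 for 12 against 4 weeks and 5 for responses. No background subtraction gave 2 for off both at 4 weeks and 2 for responses, and leaving out Myc tumor 5 and TGFα/c-Myc tumor 3 gave 2 and 4 for the same. The slide as a random block (within-slide correlation 0.444) gave 0 for off both at 12 weeks, 5 for TGFα/c-Myc against Myc tumors and 0 for each of the last 2. All 34 arrays gave 0 for off both at 12 weeks, no filter on dim probes gave 5 for TGFα/c-Myc against Myc tumors and a sex score gave 0 for 12 against 4 weeks. Fits on fewer arrays, probes or groups hold less data by construction, and for the other settings the cause was not tested.

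The replicate number as a block gave 7, 11, 11, 1, 2, 1, 5, 4, 2 and 5 in the order above, and the numbers were not taken to pair the samples (median r of 0.02 for the same number, -0.01 for others). With single arrays left out the counts ran from 4 to 11, 8 to 13, 8 to 14, 0 to 0, 1 to 2, 0 to 1, 2 to 11, 1 to 6, 0 to 1 and 0 to 6. Slc38a2 at A_51_P458384 reversed in TGFα/c-Myc less Myc tumors, at -0.21 under median centring (adjusted p = 0.865) and -0.13 (adjusted p = 0.955) when scan day was a block, and the cause was not tested. With that block Slc38a1 at A_51_P133005 also turned, from -1.47 to 0.012 (adjusted p = 0.997) off c-Myc for 12 weeks. Of the other alternatives for 21 named results, 266 kept the direction and the call and 46 lost the call. Those 21 were the calls at each gene's brightest tested probe, in the first 7 comparisons of the order above. No Slc38a1 call is among them, nor any call at a dimmer probe or in the later comparisons. The 266 include those of Aquantile scaling, which could not change a call because it leaves the log ratios as they are.

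The share of higher calls among all called probes moved from 54.6% to 71.9% under median centring for Myc tumors against controls, from 42.8% to 23.1% and from 47.1% to 62.5% for off c-Myc at 4 and 12 weeks, from 53.6% to 95.5% and from 51.1% to 93.8% for off both, and from 45.2% to 15.9% for TGFα/c-Myc against Myc tumors. It was 50.3% against 0% of 2 calls for TGFα/c-Myc tumors against controls. The median difference of all probes was then -0.109 for off c-Myc at 4 weeks, 0.104 for off both at 4 weeks and -0.183 for TGFα/c-Myc against Myc tumors, against -0.0045, 0.0081 and -0.0065 with loess. Aquantile scaling leaves the log ratios as they are. Signals near background limit Slc7a11 and the dim probes of Slc7a1 and Slc38a1.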
